A study of Rattus norvegicus with 119 samples.

Results

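Hippocampal interneurons were followed through 10 genes that mark them or make and package their transmitter GABA: Gad1, Gad2, Slc32a1, Pvalb, Calb2, Sst, Vip, Npy, Cck and Reln. Probe sets were chosen by gene symbol alone, and each of the 10 genes had 1 probe set with that symbol only, so 10 of the 14506 genes with a probe set of their own, and 10 of the 29214 probe sets, are described. The hippocampus was profiled in 40 Fischer, 40 Long Evans and 39 Sprague Dawley rats of both sexes, with 1 Affymetrix Rat Gene 1.0 ST array per animal. Controls received chow without lead. In the perinatal groups the dams ate chow with 250 or 750 ppm lead acetate from 10 days before breeding until weaning, after which the pups ate control chow. In the postnatal groups the same doses were given from birth to postnatal day 45, followed by control chow. All rats, controls included, were killed on postnatal day 55. Each of the 30 groups of strain, sex and treatment held 4 animals, or 3 in the case of Sprague Dawley male controls. The labels name no litters, and the p-values measure the spread between these animals.

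GABA is the main inhibitory transmitter of the adult forebrain. It is made from glutamate by 2 glutamate decarboxylases, loaded into vesicles by the transporter Slc32a1, and released by interneurons, a small share of hippocampal neurons that fall into classes by the calcium-binding proteins, peptides and receptors they carry. Parvalbumin cells mostly contact the cell bodies and axons of pyramidal neurons, somatostatin cells mostly contact their dendrites, and many VIP and calretinin cells contact other interneurons. Some markers are not particular to interneurons, since Cck is also transcribed in pyramidal neurons and Calb2 in other cell types, calretinin neurons of the thalamus among them. Values are log2 intensities, so a difference of 1 is a doubling, and the levels of different genes were not compared with each other. In bulk tissue, fewer cells of a type and less RNA per cell cannot be told apart.

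The promoters of Sst and Vip are shown first because both peptide genes are textbook targets of the cAMP-activated factor CREB, and because both were higher in Long Evans than in the other strains. In the RefSeq promoter table for GRCr8, which held 8 of the 10 genes (not Cck or Calb2), windows ran from 250 bases before to 50 bases after the annotated start. The full cAMP response element TGACGTCA was found in 1 of the 8, Sst, and in 612 of all 33469 promoters (1.83%). Its 5-base core TGACG, searched on both strands and contained in the full element, was found in Slc32a1, Pvalb, Sst and Vip, and in 21.2% of all promoters. The stretches below run from 120 bases before to 30 bases after the annotated start, at chr11:90461426-90461575 (plus strand) for Sst and chr1:44470360-44470509 (plus strand) for Vip, with the full element of Sst and the core in Vip in capitals. The capitals begin at base 3 after the annotated start in Sst and 97 bases before it in Vip. A match is a description of the letters, and binding was not measured. The table holds 1 reference sequence per promoter and none of the separate strains, so the matches cannot bear on a strain difference.
Sst: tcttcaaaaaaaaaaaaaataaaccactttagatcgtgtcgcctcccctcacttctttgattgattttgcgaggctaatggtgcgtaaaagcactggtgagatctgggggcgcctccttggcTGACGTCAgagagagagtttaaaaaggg
Vip: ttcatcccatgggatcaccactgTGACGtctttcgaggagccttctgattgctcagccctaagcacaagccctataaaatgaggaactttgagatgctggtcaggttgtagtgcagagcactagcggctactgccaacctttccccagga

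Libraries were described by the numbers in their labels as well as by group. Within each group the animals with the lower and the upper label numbers were separated, which gave sets of 20 and 20 Fischer, 20 and 20 Long Evans, and 19 and 20 Sprague Dawley arrays. What the numbers stand for is not given in the labels. In Fischer, 60.9% of all probe sets differed between these sets (limma, adjusted p under 0.05, which is the meaning of "called" throughout), against 0.0993% in Long Evans and 18.9% in Sprague Dawley, so strain results are given over all arrays and within each set. Label numbers also ran in blocks by strain and treatment. Sprague Dawley numbers lay above all others, and most Long Evans numbers lay below all Fischer numbers. Strain and lead exposure therefore cannot be fully told apart from these number blocks. On 8 arrays, none of them Fischer, X-linked genes had levels typical of the opposite sex. The mean level of 12 choroid plexus genes ranged from 6.95 to 10.70 over the arrays, while the mean of 10 principal neuron genes had strain medians of 11.42 in Fischer, 11.43 in Long Evans and 11.32 in Sprague Dawley.

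No gene of the 10 passed the test for lead in any strain. The 8 exposed groups of each strain were each compared with the controls of the same strain and sex, and limma called 0 of 80 values in Fischer, 0 of 80 in Long Evans and 0 of 80 in Sprague Dawley. Over all probe sets, 0.00214%, 0.0424% and 0.00813% of values were called. At an unadjusted p under 0.05 there were 3, 9 and 5 of 80, against 3.0%, 5.97% and 3.17% of all probe sets, and the lowest adjusted p was 0.41. The 4 contrasts of a strain and sex share their controls and are not independent. The 95% confidence interval of a single contrast reached, in the median of the 10 genes, 0.208 to either side in Fischer, 0.143 in Long Evans and 0.180 in Sprague Dawley. These fits left out the label-number set, so differences between the sets are part of this spread, most of all in Fischer.

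The mean of the 8 lead effects gave narrower intervals. Limma called 0 of 10 genes in each strain, where 0%, 0.212% and 0.0171% of all probe sets were called in Fischer, Long Evans and Sprague Dawley. At an unadjusted p under 0.05 there were 0, 2 and 1 of 10 genes, against 2.50%, 7.45% and 3.64% of all probe sets.

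**Figure D1:**
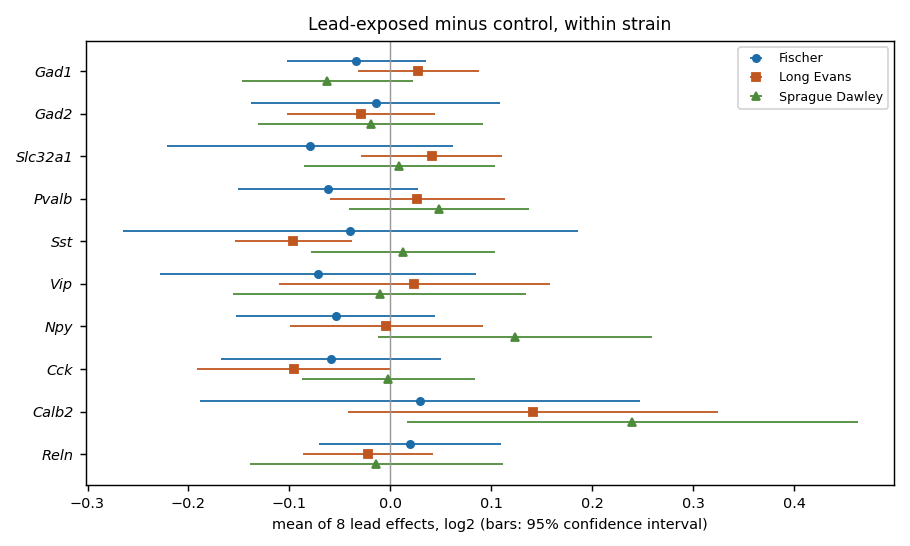
Mean of the 8 exposed-minus-control differences (log2, horizontal axis) for each of the 10 genes and 3 strains, with 95% confidence intervals as bars. The interval lies beyond 0 for Sst and Cck in Long Evans, both at -0.10, and for Calb2 in Sprague Dawley at 0.24, and none of them was called.

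The genes of GABA synthesis and packaging had mean effects between -0.08 and 0.04. Gad1, which makes the larger share of GABA in the brain, had differences of -0.03 in Fischer (interval -0.10 to 0.04), 0.03 in Long Evans (-0.03 to 0.09) and -0.06 in Sprague Dawley (-0.15 to 0.02). Gad2, the decarboxylase of nerve terminals, had -0.01 (-0.14 to 0.11), -0.03 (-0.10 to 0.04) and -0.02 (-0.13 to 0.09). Slc32a1 had -0.08 (-0.22 to 0.06), 0.04 (-0.03 to 0.11) and 0.01 (-0.09 to 0.10). All 9 intervals include 0.

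The calcium-binding proteins differed in how tightly they could be measured. Pvalb, the marker of fast-spiking basket and axo-axonic cells, had -0.06 in Fischer (-0.15 to 0.03), 0.03 in Long Evans (-0.06 to 0.11) and 0.05 in Sprague Dawley (-0.04 to 0.14). Calb2, which encodes calretinin, had 0.03 in Fischer (-0.19 to 0.25), 0.14 in Long Evans (-0.04 to 0.32) and 0.24 in Sprague Dawley (0.02 to 0.46; adjusted p = 0.9995). In Sprague Dawley the Calb2 values were above the controls' mean in 8 of 8 contrasts, by 0.03 to 0.54.

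That difference was largest in Sprague Dawley females after perinatal lead at 250 ppm. Calb2 was at 8.44, 8.61, 8.54 and 8.31 in female controls and at 9.05, 8.95, 9.17 and 8.88 in this exposed group, so the groups did not overlap. The difference was 0.54 (95% interval 0.16 to 0.91; limma, adjusted p = 0.99). The share of all probe sets without overlap in this contrast was not determined. After postnatal lead at 750 ppm females had 9.01, 9.03, 8.32 and 9.17, with 1 animal among the controls, and at 250 ppm 8.58, 9.15, 8.14 and 9.10, which spread to both sides of the controls. After perinatal lead at 750 ppm they had 8.41, 8.82, 9.14 and 8.69. The male controls, at 8.57, 9.06 and 8.73, overlapped with all 4 male exposed groups. Female control 2 (8.61) and females 2 and 4 after postnatal lead at 750 ppm (9.03 and 9.17) are arrays that went against their sex label. So are male 4 after perinatal and male 2 after postnatal lead at 750 ppm. Without arrays of this kind limma called 0 of the 10 genes for lead, dose, period or sex in Sprague Dawley (lowest adjusted p = 0.55). Without each animal in turn the mean effect stayed between 0.19 and 0.31, with a lowest adjusted p of 0.98. The mean of the thalamus list ranged from 8.06 to 8.28 in the female controls and from 8.29 to 8.37 after perinatal lead at 250 ppm, and the mean of the choroid plexus list from 7.31 to 9.74 and from 8.41 to 10.52. Their part in the result was not tested.

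Sst, the peptide of dendrite-contacting interneurons, was below the controls' mean in 8 of 8 contrasts in Long Evans, by -0.19 to -0.02, with a mean effect of -0.10 (-0.15 to -0.04; adjusted p = 0.21). Male controls had 12.33, 12.34, 12.30 and 12.34, and males given postnatal lead at 250 ppm had 12.16, 12.15, 11.995 and 12.26. Female controls had 12.30, 12.30, 12.39 and 12.43, and females given postnatal lead at 250 ppm had 12.15, 12.09, 12.17 and 12.26. In neither sex did these groups overlap, and the difference was -0.19 in both (interval -0.29 to -0.08 in each; adjusted p = 0.41 in males and 0.64 in females). The share of all probe sets without overlap in these contrasts was not determined. Of these controls, male 4 and females 1 and 3 are arrays that went against their sex label. Without them the differences were -0.18 in males (-0.30 to -0.06; limma, adjusted p = 0.45) and -0.20 in females (-0.33 to -0.06; limma, adjusted p = 0.9999).

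The perinatal and the 750 ppm groups of Long Evans lay closer to the controls in Sst. After perinatal lead at 250 ppm males had 12.20, 12.19, 12.16 and 12.28, all below the male controls, and females 12.26, 12.35, 12.28 and 12.23, which overlapped with theirs. How many of all probe sets lacked overlap was not determined here either. At 750 ppm the perinatal males had 12.30, 12.43, 12.27 and 12.23 and the perinatal females 12.30, 12.30, 12.32 and 12.43. The postnatal males at 750 ppm had 12.27, 12.16, 12.17 and 12.30 and the postnatal females 12.30, 12.26, 12.33 and 12.33. All 4 of the 750 ppm groups reached into the range of their controls. In label number, the perinatal females at 750 ppm directly followed the controls and the perinatal males at 750 ppm came last. The other exposed groups lay between them. Exposed groups apart from these females shared no number range with the controls, so their lead exposure and number range cannot be told apart.

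Without each animal in turn the Long Evans mean effect on Sst stayed between -0.11 and -0.08, with a lowest adjusted p of 0.14. In the same contrast 4 of 9 probe sets of the oligodendrocyte list were called, all higher, with a list median of 0.17 against 0.00 for all probe sets. The mean of that list ranged from 11.18 to 11.30 in male controls and from 11.28 to 11.57 in males given postnatal lead at 250 ppm, and in females from 11.25 to 11.37 and from 11.39 to 11.61. Its part in the result was not tested. In Fischer and Sprague Dawley the mean lead effect on Sst was -0.04 (-0.27 to 0.19) and 0.01 (-0.08 to 0.10).

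**Figure D2:**
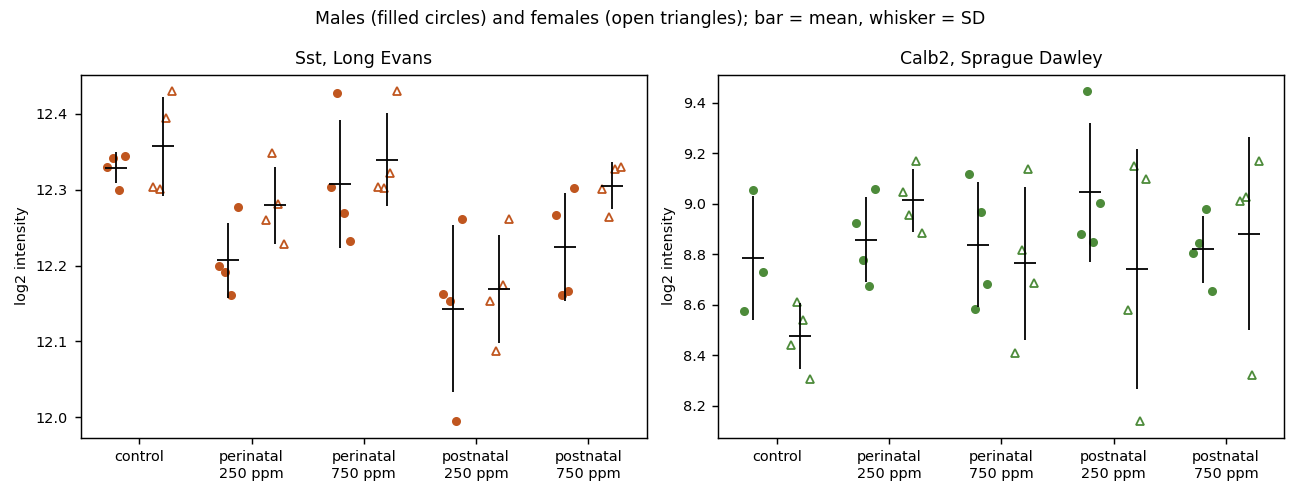
Log2 intensity of Sst in Long Evans and Calb2 in Sprague Dawley in every animal by treatment, with the group mean and SD. Sst means ran from 12.14 (males, postnatal 250 ppm) to 12.36 (female controls), and Calb2 means from 8.47 (female controls) to 9.05 (males, postnatal 250 ppm).

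The other peptides were not called for lead either. Vip, the peptide of interneurons that mostly inhibit other interneurons, had mean effects of -0.07 in Fischer (-0.23 to 0.08), 0.02 in Long Evans (-0.11 to 0.16) and -0.01 in Sprague Dawley (-0.16 to 0.13). In Long Evans females given perinatal lead at 750 ppm it was at 7.45, 7.69, 7.41 and 7.80 against 7.46, 7.31, 7.18 and 7.22 in controls, a difference of 0.29 (0.05 to 0.53; adjusted p = 0.73) with 1 control inside the exposed range. In Fischer females given the same exposure it was at 6.996, 6.83, 6.81 and 6.44 against 7.33, 7.13, 7.01 and 6.87, a difference of -0.32 (-0.60 to -0.04; adjusted p = 1.0) with overlapping groups.

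Npy, neuropeptide Y, is carried by several interneuron classes, dendrite-targeting cells of the dentate hilus among them. Its mean effect was -0.05 in Fischer (-0.15 to 0.04), -0.00 in Long Evans (-0.10 to 0.09) and 0.12 in Sprague Dawley (-0.01 to 0.26). In Sprague Dawley it was above control in 8 of 8 contrasts, but the male controls were at 9.80, 10.36 and 10.37, so 1 animal set their mean low. Cck, the peptide of another basket cell class, had -0.06 (-0.17 to 0.05), -0.10 (-0.19 to -0.00; adjusted p = 0.66) and -0.00 (-0.09 to 0.08) in Fischer, Long Evans and Sprague Dawley. Reln, the secreted glycoprotein reelin that neurogliaform and other interneurons release in the adult, had 0.02 (-0.07 to 0.11), -0.02 (-0.09 to 0.04) and -0.01 (-0.14 to 0.11).

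Neither dose, period nor sex was called for any of the 10 genes. The dose contrast (750 minus 250 ppm, over both sexes and periods) gave 0 calls of 30 by limma and 7 of 30 at an unadjusted p under 0.05, against 0.0434% and 5.25% of all probe sets. Of those 7, 5 were in Long Evans, 2 in Fischer and 0 in Sprague Dawley, against 2028, 1610 and 964 of all 29214 probe sets. In Long Evans 9 of 10 genes were higher at 750 ppm, with a median of 0.06 against -0.00 for all probe sets. The share of all probe sets higher at 750 ppm was not determined, and the 10 genes are not independent. Of the Long Evans 750 ppm groups, only the postnatal males lay inside the label-number range of the 250 ppm groups. The postnatal females and both perinatal groups lay outside it, and the part of label number was not tested. Among the 10 genes in Long Evans, Sst differed by 0.09 (0.04 to 0.15; adjusted p = 0.22) and Vip by 0.14 (0.02 to 0.26; adjusted p = 0.60).

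The period contrast (perinatal minus postnatal) gave 0 calls and 5 of 30 at an unadjusted p under 0.05, against 0.0365% and 6.86% of all probe sets. The lowest adjusted p was that of Reln in Long Evans, at -0.10 (-0.16 to -0.05; adjusted p = 0.16). Between the sexes (male minus female) there were 0 calls and 2 of 30 at an unadjusted p under 0.05, against 0.0616% and 10.8%. In Long Evans all 10 differences were below 0, from -0.10 to -0.00, with a median of -0.05 against 0.006 for all probe sets. The share of all probe sets below 0 was not determined, and the 10 genes are not independent. Of the 8 arrays that went against their sex label, 3 were in this strain, 1 male and 2 female controls. The difference of the lead effect between the sexes gave 0 calls and 1 of 30 at an unadjusted p under 0.05, against 0.00114% and 2.66%. That 1 was Reln in Sprague Dawley (males minus females -0.29, -0.54 to -0.04; adjusted p = 1.0).

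Lead effects were not shown to differ between strains. Of 30 differences between strain pairs in the mean lead effect, limma called 0 and 1 had an unadjusted p under 0.05, against 0.0730% and 3.87% of all probe sets. That 1 was Npy, where Sprague Dawley minus Fischer was 0.18 (0.02 to 0.33; adjusted p = 0.9997).

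The wider interneuron system was read from 4 lists with 55 probe sets: 7 for GABA metabolism and the inhibitory synapse, 11 for interneuron transcription factors, 22 for other interneuron markers and 15 for the receptors of the peptides and reelin. In the lead contrasts limma called 0 of 1320 values, with 63 (4.77%) at an unadjusted p under 0.05, which is near the 3.0%, 5.97% and 3.17% of all probe sets in Fischer, Long Evans and Sprague Dawley. The mean lead effect, the period and sex contrasts and the differences of lead effects gave no call either. The dose contrast called 1, against 0.0434% of all probe sets, the serotonin receptor subunit Htr3a in Long Evans, which marks a broad class of interneurons that includes the VIP cells.

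Htr3a in Long Evans was at 8.02, 8.28 and 8.33 (lowest, median and highest) in 8 controls, at 7.57, 8.02 and 8.16 in 16 animals given 250 ppm and at 7.96, 8.20 and 8.40 in 16 animals given 750 ppm. The exposed doses overlapped between 7.96 and 8.16. The difference of 750 minus 250 ppm was 0.23 ± 0.05 (SE; adjusted p = 0.029), and in Fischer and Sprague Dawley it was -0.06 and -0.01. It was called in 27 of 40 fits without 1 animal, with values of 0.21 to 0.26 and a highest adjusted p of 0.068. Label numbers of the postnatal 750 ppm males lay in the range of the 250 ppm groups. Those of the postnatal 750 ppm females lay below that range, and those of the perinatal 750 ppm groups outside it too. The part of label number in the result was not tested.

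Several of the 10 genes were called between strains, while none was called for lead. The strains also differed in their range of label numbers, so strain and number range cannot be fully told apart. Long Evans had more Sst and Vip than Fischer or Sprague Dawley, and Sprague Dawley had more Calb2 than either, in both label-number sets. Over all groups limma called 5 of 10 genes between Long Evans and Fischer, 6 between Sprague Dawley and Fischer and 6 between Long Evans and Sprague Dawley. Of all probe sets 61.2%, 40.7% and 62.2% were called, so these counts are close to the background and do not set the 10 genes apart. The median difference of the 10 genes was 0.07, 0.00 and 0.06, against -0.01, 0.00 and -0.02 for all probe sets. Within the sets, 3 genes (Sst, Vip and Npy), 1 (Calb2) and 5 (Slc32a1, Sst, Vip, Calb2 and Reln) were called in both with the same direction.

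**Figure D3:**
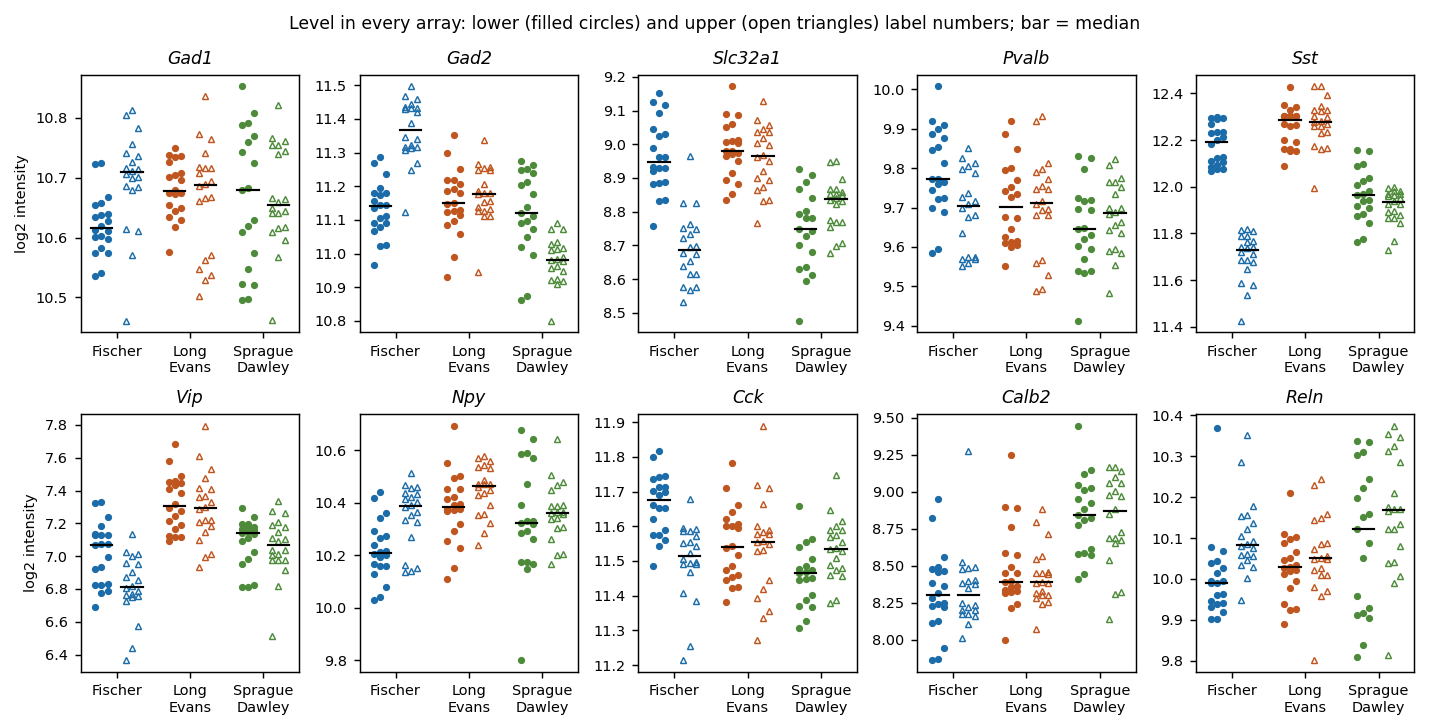
Log2 intensity of the 10 genes in every array, by strain, with lower label numbers as filled circles, upper label numbers as open triangles and the median as a bar. Fischer Sst falls into sets from 12.07 to 12.30 and from 11.43 to 11.82, while the sets of Long Evans and Sprague Dawley overlap.

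Sst was at 12.09, 12.28 and 12.43 (lowest, median and highest) in the lower and at 11.995, 12.28 and 12.43 in the upper Long Evans numbers. Sprague Dawley had 11.77, 11.97 and 12.16 and 11.73, 11.93 and 12. Fischer had 12.07, 12.19 and 12.30 and, in the upper numbers, 11.43, 11.73 and 11.82. Long Evans was thus highest, and whether Fischer lay above or below Sprague Dawley depended on the set.

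Long Evans exceeded Sprague Dawley in Sst by 0.33 ± 0.04 (SE; 1.25-fold; adjusted p under the threshold in both sets, at 0.30 and 0.36). It exceeded Fischer by 0.33 ± 0.04 over all arrays, but by 0.08 in the lower numbers (adjusted p = 0.047) and by 0.57 in the upper. Sprague Dawley minus Fischer was -0.00 over all arrays, the balance of -0.22 in the lower and 0.21 in the upper numbers, both called. The controls alone gave 0.41 for Long Evans minus Sprague Dawley (0.23 to 0.60; adjusted p = 5.5e-04) and 0.37 for Long Evans minus Fischer (0.19 to 0.55; adjusted p = 0.0012), the latter 0.12 in the lower numbers (not called) and 0.62 in the upper.

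Vip was also highest in Long Evans. Long Evans had 7.09, 7.30 and 7.69 in the lower and 6.93, 7.29 and 7.80 in the upper numbers. Sprague Dawley had 6.81, 7.14 and 7.30 and 6.51, 7.06 and 7.34, and Fischer 6.69, 7.07 and 7.33 and 6.37, 6.81 and 7.14. The ranges of all 3 strains overlapped. Long Evans exceeded Fischer by 0.39 ± 0.04 (1.31-fold; 0.30 and 0.48 in the sets) and Sprague Dawley by 0.23 ± 0.04 (0.24 in each set), all called. Sprague Dawley exceeded Fischer by 0.16 ± 0.04, called in the upper numbers (0.24) but not in the lower (0.06). In controls the Long Evans excess over Fischer was 0.32 (0.14 to 0.50; adjusted p = 0.0055), and without the 8 arrays that went against their sex label it was 0.27 with an adjusted p of 0.064.

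Calb2 was highest in Sprague Dawley. Its values were 8.41, 8.84 and 9.45 in the lower and 8.14, 8.87 and 9.17 in the upper Sprague Dawley numbers. Fischer had 7.86, 8.30 and 8.95 and 8.01, 8.30 and 9.28, and Long Evans 7.995, 8.39 and 9.24 and 8.07, 8.39 and 8.88. Ranges overlapped and medians did not follow the label numbers. Sprague Dawley exceeded Fischer by 0.49 ± 0.06 (1.40-fold; 0.51 and 0.46 in the sets) and Long Evans was below Sprague Dawley by -0.37 ± 0.06 (-0.35 and -0.38), all called. Fischer and Long Evans, neighbours in the order of Calb2 levels, differed by 0.12 (0.01 to 0.24; adjusted p = 0.064). The controls alone gave 0.32 for Sprague Dawley minus Fischer (0.05 to 0.59; adjusted p = 0.12). In the same comparison over all groups 3 of 4 probe sets of the thalamus list were higher, with a median of 0.23, among them the kinase Prkcd at 0.34 and the receptor activity modifier Ramp3 at 0.50, and 3 of 4 were lower in Long Evans than in Sprague Dawley. The choroid plexus list had 0 of 12 called. The part of thalamic tissue in the result was not tested.

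**Figure D4:**
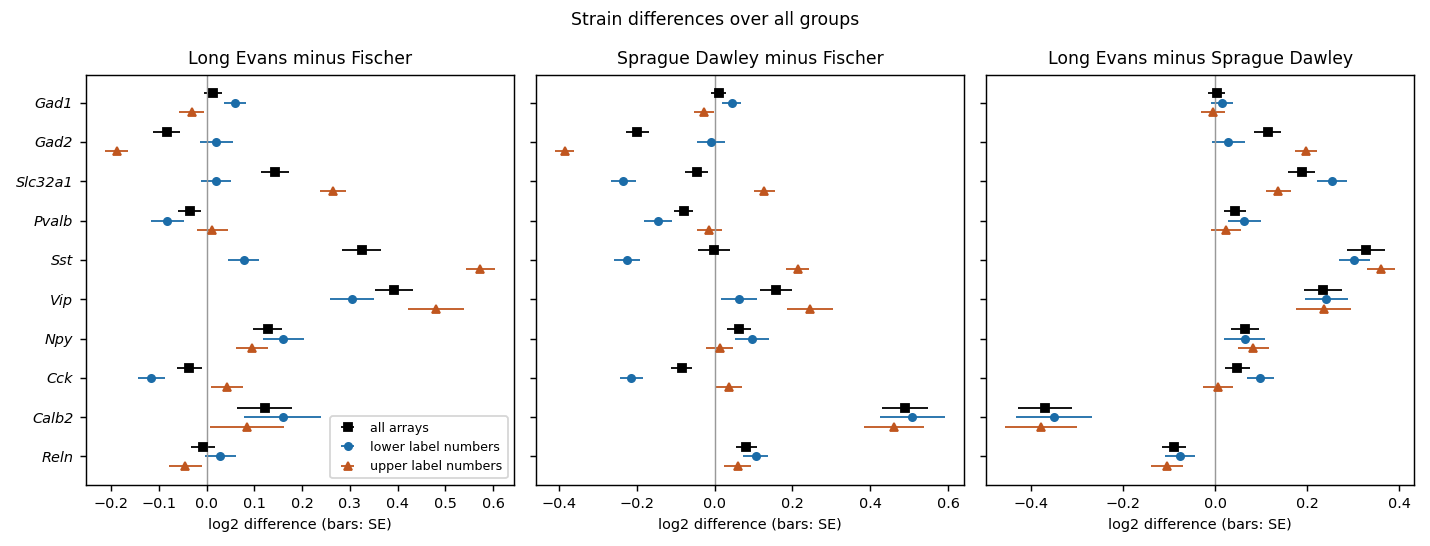
Log2 strain differences over all groups for the 10 genes, in all arrays and in the lower and upper label numbers, with SE as bars. Long Evans minus Sprague Dawley is alike in both sets for Sst (0.30 and 0.36) and Vip (0.24 and 0.24), whereas Sprague Dawley minus Fischer takes opposite signs for Sst (-0.22 and 0.21) and Slc32a1 (-0.23 and 0.13).

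Among the genes of GABA synthesis and packaging, Gad1 showed no called strain difference over all arrays, with strain medians of 10.66 in Fischer, 10.68 in Long Evans and 10.66 in Sprague Dawley. The intervals of its differences were -0.02 to 0.05, -0.03 to 0.05 and -0.03 to 0.04. Gad2 was lower in Sprague Dawley than in Fischer by -0.20 ± 0.03, which came from the upper numbers (-0.38) and was -0.01 in the lower. Fischer Gad2 itself ran at 10.96, 11.14 and 11.29 in the lower and 11.12, 11.37 and 11.50 in the upper numbers, against 10.86, 11.12 and 11.28 and 10.80, 10.98 and 11.09 in Sprague Dawley. Long Evans, at 10.93, 11.15 and 11.35 and 10.94, 11.18 and 11.34, lay between them in the upper numbers. Long Evans minus Fischer was -0.08 ± 0.03 (adjusted p = 0.0084), with 0.02 in the lower and -0.19 in the upper numbers, and Long Evans minus Sprague Dawley was 0.11 ± 0.03 (adjusted p = 4e-04), with 0.03 and 0.20.

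Slc32a1 was higher in Long Evans than in Sprague Dawley by 0.19 ± 0.03, called in both sets (0.25 and 0.14). It was at 8.83, 8.98 and 9.17 and at 8.77, 8.97 and 9.13 in Long Evans and at 8.48, 8.75 and 8.93 and at 8.68, 8.84 and 8.95 in Sprague Dawley. Fischer had 8.76, 8.95 and 9.15 in the lower and 8.53, 8.69 and 8.96 in the upper numbers, so its place against Sprague Dawley turned with the set: Sprague Dawley minus Fischer was -0.23 in the lower and 0.13 in the upper numbers, both called. Against Long Evans it was level in the lower numbers (0.02) and lower in the upper (Long Evans minus Fischer 0.27).

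Pvalb, Npy, Cck and Reln had small strain differences. Pvalb medians were 9.74 in Fischer, 9.71 in Long Evans and 9.66 in Sprague Dawley, and only Sprague Dawley minus Fischer was called, at -0.08 ± 0.02 (-0.15 in the lower numbers, called, and -0.01 in the upper, not called). Npy medians were 10.28, 10.43 and 10.34, and Long Evans exceeded Fischer by 0.13 ± 0.03, called in both sets. Cck medians were 11.58, 11.55 and 11.49, and Sprague Dawley minus Fischer was -0.08 ± 0.03, called at -0.21 in the lower numbers and at 0.04 and not called in the upper. Reln medians were 10.04, 10.04 and 10.15, with Sprague Dawley above Fischer by 0.08 ± 0.03 and Long Evans below Sprague Dawley by -0.09 ± 0.03, the latter called in both sets.

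In the controls alone, 2 of 10 genes were called between Long Evans and Fischer (Sst and Vip), 2 between Sprague Dawley and Fischer (Gad2 at -0.19, adjusted p = 0.045, and Pvalb at -0.17, adjusted p = 0.037) and 1 between Long Evans and Sprague Dawley (Sst), against 25.1%, 10.5% and 24.5% of all probe sets. The calls between Sprague Dawley and Fischer depended on single animals. Of the 23 fits without 1 control, 10 lost the call of Gad2 and 8 that of Pvalb. Both were lost without Fischer male control 4, Sprague Dawley female control 4 or Sprague Dawley male control 1, 2 or 3, and 1 of them without any Fischer female control, Fischer male control 3 or Sprague Dawley female control 1, 2 or 3. Between Long Evans and Sprague Dawley 2 or 3 genes were called without Long Evans female control 1, Long Evans male control 2 or 3, Sprague Dawley female control 2 or Sprague Dawley male control 2 or 3.

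In Long Evans against Sprague Dawley, 3 of the 4 lists around the 10 genes had more higher than lower calls. Of all probe sets 62.2% were called here, 27.8% higher and 34.4% lower, so a large count of calls is no result about a list, and the lists were not tested as sets. Of the 15 receptor probe sets 10 were higher and 1 lower in Long Evans, with a list median of 0.16 against -0.02 for all probe sets. Among them were the somatostatin receptors Sstr2 (0.34 ± 0.04; 0.35 and 0.34 in the sets) and Sstr3 (0.22 ± 0.03), the VIP receptor Vipr1 (0.24 ± 0.03; 0.27 and 0.21) and the reelin adaptor Dab1 (0.23 ± 0.02).

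Of the 22 other markers 15 were higher and 5 lower, with a median of 0.10. Htr3a stood at 0.81 ± 0.04 (0.84 and 0.79 in the sets), Elfn1, a postsynaptic protein of somatostatin cells, at 0.53 ± 0.04, the corticotropin-releasing hormone binding protein Crhbp at 0.39 ± 0.03, and the vesicular glutamate transporter Slc17a8 at -0.30 ± 0.03. Of the 11 transcription factors 5 were higher and 3 lower, with Maf at 0.41 ± 0.03, Npas1 at 0.24 ± 0.02, Lhx6, which specifies somatostatin and parvalbumin cells, at 0.23 ± 0.03, and Sox6 at -0.16 ± 0.02. Of the 7 probe sets for GABA metabolism and synapse 2 were higher and 2 lower, with the inhibitory synapse protein Nlgn2 at 0.44 ± 0.04. The neocortex list, 3 probe sets, was higher in Long Evans than in Sprague Dawley and than in Fischer, 3 of 3 in each, with medians of 0.14 and 0.15. Its part in the strain differences was not tested.

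Sprague Dawley against Fischer, where 40.7% of all probe sets were called (19.8% higher and 20.8% lower), gave more lower than higher calls in 3 of the 4 lists: 2 higher and 8 lower receptors, 1 higher and 12 lower other markers, 1 higher and 5 lower transcription factors, and 2 higher and 1 lower probe sets for GABA metabolism and synapse. Htr3a was at -0.52 ± 0.04 and the cannabinoid receptor Cnr1, a marker of Cck basket cells, at -0.21 ± 0.02. Long Evans against Fischer, where 61.2% of all probe sets were called (27.8% higher and 33.4% lower), gave 6 higher and 1 lower receptors, 9 higher and 8 lower other markers, 4 higher and 2 lower transcription factors, and 2 higher and 3 lower probe sets for GABA metabolism and synapse. Both comparisons share the Fischer arrays with their separate sets.

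The label-number sets of Fischer differed in 9 of the 10 genes, 4 higher and 5 lower in the upper numbers. Of all probe sets 60.9% were called in this comparison. Sst was lower by -0.48 ± 0.03 (limma, adjusted p = 2.2e-14). Among the 10 genes it was the only one, and Fischer the only strain, with sets that did not overlap. The share of all probe sets without overlap was not determined, so this does not set Sst apart from other genes. Slc32a1 (-0.27), Vip (-0.21), Cck (-0.16) and Pvalb (-0.10) were lower too. Gad2 (0.23), Npy (0.13), Reln (0.10) and Gad1 (0.08) were higher, so both decarboxylases were higher and the vesicle transporter lower. Calb2, at 0.02, was not called.

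Genes of other cells differed between the same Fischer sets. The meninges list had 9 of 10 lower with a median of -0.39, the astrocyte list 6 of 8 higher, the oligodendrocyte list 6 of 9 higher and 1 lower, the neocortex list 2 of 3 lower with a median of -0.24, and the choroid plexus list 0 of 12 called. The receptors fell in 6 and rose in 3 of 15, with Sstr2 at -0.50, Vipr1 at -0.34 and the neuropeptide Y receptor Npy1r at -0.32. Their part in the differences of the 10 genes was not tested. In Long Evans limma called 0 of 10 genes between the sets, and 0 had an unadjusted p under 0.05. In Sprague Dawley it called 2, Gad2 at -0.15 (adjusted p = 0.0021), opposite to Fischer, and Cck at 0.08 (adjusted p = 0.048), which lost its call in 27 of 39 fits without 1 animal.

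Variation between animals of the same group was compared next. Group and label-number-set means were removed within each strain, and all 45 pairs of the 10 genes were correlated in 3 strains, 135 relations in all. The permutation p (two-sided, 100000 resamples) treats these residuals as exchangeable and is too small, by an amount that was not determined. Values near the threshold are thus uncertain, and within a set the residuals come from pairs of animals. After Benjamini-Hochberg adjustment 20 relations had a p under 0.05, 17 positive and 3 negative, 9 in Fischer, 6 in Long Evans and 5 in Sprague Dawley. The share among pairs of other genes was not determined, so such counts are no result about the 10 genes as a group.

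Animals at the same place in the order of label numbers within a group, called a position here, shared part of this variation. In Fischer, Sst was higher at the first than at the second position in 10 of 10 groups, Calb2 in 9 and Slc32a1 in 9, while Cck was lower there in 10 of 10 and Npy in 9. In Long Evans the fourth position was above the third in 9 of 10 groups for Vip, 9 for Npy and 8 for Sst, and in Sprague Dawley it was below it in 8 of 9 groups for Vip and 9 for Npy. The correlations were therefore repeated with the mean of each of the 4 positions removed as well, in 40 Fischer, 40 Long Evans and 36 Sprague Dawley arrays (without the 3 male controls), and these values stand beside the others as position-corrected. Of the 20 relations 6 kept an adjusted p under 0.05 with the same sign and 14 did not, and 16 of the 135 passed in all. The position-corrected permutation p is too small in the same way, since further means were removed. What the positions stand for is not given in the labels.

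**Figure D5:**
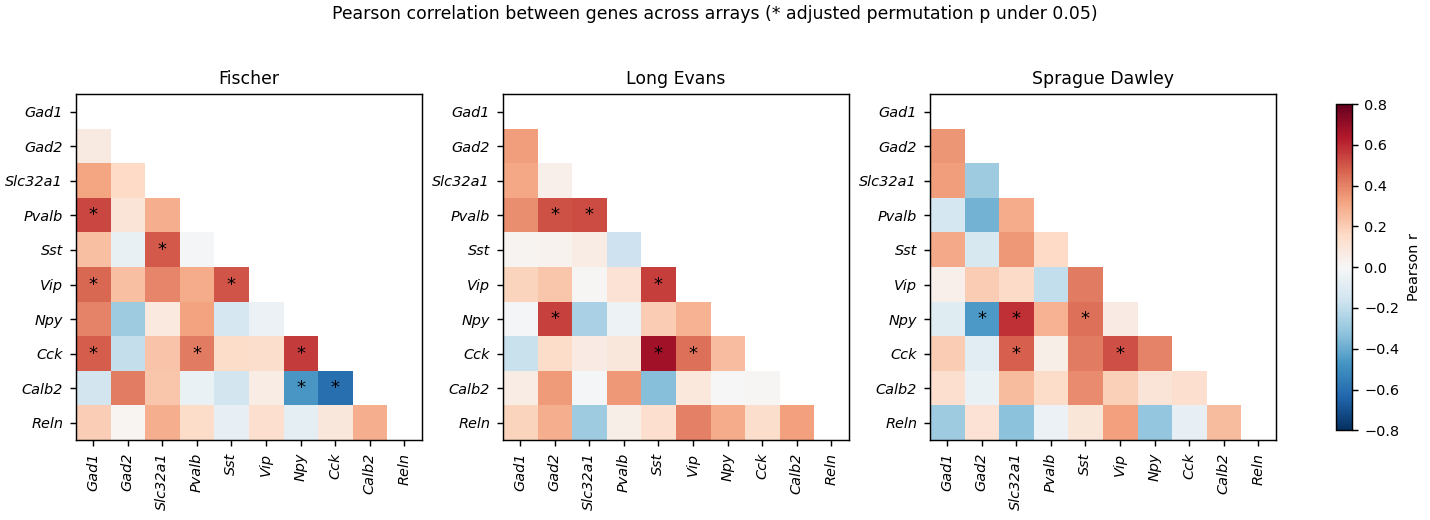
Pearson correlation of each pair of the 10 genes over the arrays of a strain, after group and label-number-set means were removed, with asterisks where the adjusted permutation p was under 0.05. Sst with Vip is positive in all 3 panels (0.50, 0.55 and 0.41; 0.40, 0.40 and 0.32 position-corrected, none of which passed), while Gad2 with Npy is 0.54 in Long Evans and -0.46 in Sprague Dawley.

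Sst and Vip, peptides of different interneuron classes, had positive correlations that lost their call once positions were removed. In Fischer r was 0.50 (rho 0.50; permutation p = 9.7e-04, adjusted 0.012; n = 40), 0.45 without the 2 arrays farthest from the median, and 0.64 and 0.56 in the lower and upper numbers. In Long Evans r was 0.55 (rho 0.52; permutation p = 1.5e-04, adjusted 0.0041; n = 40), 0.53 without 2 arrays, and 0.44 and 0.73 in the sets. In Sprague Dawley r was 0.41 (rho 0.38; adjusted permutation p = 0.051; n = 39), 0.37 without 2 arrays, and 0.43 and 0.32 in the sets. Position-corrected, r was 0.40 in Fischer (rho 0.23; adjusted permutation p = 0.060), 0.40 in Long Evans (rho 0.33; adjusted permutation p = 0.053) and 0.32 in Sprague Dawley (rho 0.27; adjusted permutation p = 0.15), and no strain passed.

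Vip with Cck passed in Long Evans (0.44, rho 0.51; adjusted permutation p = 0.034; 0.42 without 2 arrays; 0.32 and 0.52 in the sets) and in Sprague Dawley (0.52, rho 0.63; adjusted permutation p = 0.011; 0.66 without 2 arrays; 0.20 and 0.25 in the sets). Position-corrected it was 0.30 in Long Evans and 0.44 in Sprague Dawley (adjusted permutation p = 0.15 and 0.053), and in Fischer it went from 0.14 to 0.51 (adjusted permutation p = 0.014; 0.01 and 0.68 in the sets). Other relations varied with the strain. Sst with Cck was 0.67 in Long Evans (rho 0.59; adjusted permutation p = 0.0014), but 0.15 in its lower and 0.81 in its upper numbers. It kept its call position-corrected, at 0.65 (rho 0.56; adjusted permutation p = 6.8e-04; 0.18 and 0.70 in the sets), and Fischer went from 0.15 to 0.78 (adjusted permutation p = 6.8e-04), with -0.13 in the lower and 0.89 in the upper numbers. Cck with Calb2 was -0.60 in Fischer (rho -0.58; adjusted permutation p = 0.0032; -0.51 without 2 arrays; -0.62 and -0.83 in the sets) and 0.01 and 0.14 in Long Evans and Sprague Dawley. Position-corrected the Fischer value was -0.50 (adjusted permutation p = 0.021), but rho was -0.23 (adjusted permutation p = 0.33), with 0.00 in the lower and -0.82 in the upper numbers. Gad2 with Npy was 0.54 in Long Evans (rho 0.46; adjusted permutation p = 0.0062; 0.78 and 0.19 in the sets) and -0.46 in Sprague Dawley (rho -0.47; adjusted permutation p = 0.026; -0.80 and -0.44). Position-corrected these were 0.58 (rho 0.50; adjusted permutation p = 0.0022; 0.78 and 0.36 in the sets) and -0.41 (rho -0.43; adjusted permutation p = 0.062), so the relation in Long Evans passed and that in Sprague Dawley did not. Gad1 with Gad2, the pair of enzymes with the same product, was 0.07 in Fischer, 0.34 in Long Evans and 0.35 in Sprague Dawley, and none passed the adjustment, nor did the position-corrected 0.08, 0.38 and 0.43.

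Marker lists of other cells and tissues were correlated with the 10 genes in the same way, and 34 of 300 relations had an adjusted permutation p under 0.05. Of these 21 kept it with the same sign when positions were removed, 13 did not, and 35 passed in all. The share for other genes was not determined here either. Reln with the meninges list was 0.73 in Sprague Dawley (rho 0.69; permutation p = 1e-05, the smallest the resampling can give, adjusted 0.0015; 0.67 without 2 arrays; 0.79 in each set), and 0.17 and 0.04 in Fischer and Long Evans. Position-corrected it was 0.74 in Sprague Dawley (rho 0.69; adjusted permutation p = 0.0012; 0.79 and 0.81 in the sets). Slc32a1 with the microglia list was 0.72 in Fischer (rho 0.68; adjusted permutation p = 0.0015; 0.69 without 2 arrays; 0.49 and 0.88 in the sets), 0.48 in Sprague Dawley (0.64 and 0.66) and 0.08 in Long Evans. Position-corrected it was 0.71 in Fischer (rho 0.64; adjusted permutation p = 0.0012; 0.41 and 0.88 in the sets) and 0.16 in Sprague Dawley (-0.32 and 0.67). Calb2 with the thalamus list was 0.60 in Fischer (0.50 in the lower but -0.03 in the upper numbers), 0.56 in Long Evans (0.67 and 0.21) and 0.06 in Sprague Dawley, so in Fischer it did not hold within the upper numbers. Position-corrected it was 0.63 in Fischer (0.58 and -0.04 in the sets), 0.52 in Long Evans (0.58 and 0.23) and 0.12 in Sprague Dawley.

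For each of the 10 genes, the genes most like it were taken from the 15309 other probe sets with a single symbol, by the mean over the 3 strains of Pearson's r after the same means were removed (all arrays). They were the histamine receptor Hrh3 (0.72), the syndecan Sdc3 (0.68) and the potassium channel Kcnn3 (0.66) for Sst, and Ptprn2 (0.71), Rgs17 (0.67) and Ptprt (0.67) for Vip. For Pvalb they were Plekho1 (0.56), the fast potassium channel Kcnc1 (0.54), which fast-spiking interneurons carry and which stood in the list of other markers, and Txnrd2 (0.54). For Calb2 they were Gnas (0.72), Ebf3 (0.60) and Ecel1 (0.58).

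The remaining genes had Akap6 (0.62), Otof (0.59) and Sntg1 (0.58) nearest to Gad1, and Bzw1 (0.76), Gabpa (0.75) and Cert1 (0.74) nearest to Gad2. Slc32a1 had Abhd3 (0.60), Alkbh7 (0.58) and Ppfia4 (0.55), and Reln had Tbc1d9 (0.67), Utrn (0.65) and Shank2 (0.64). Npy had Akr1a1 (0.59), Cox6a1 (0.59) and Ifngr2 (0.57), and Cck had Psme3ip1 (0.60), Emd (0.60) and Cox6a1 (0.59). None of the 10 genes was among the 3 nearest of another. Position-corrected, the mean r of these 30 was 0.37 to 0.75, and 12 of the 30 were still among the 3 nearest. Hrh3 (0.74) stayed nearest to Sst, Ptprn2 (0.67) to Vip and Gnas (0.75) to Calb2, whereas Cox6a1 fell to 0.37 with Npy and 0.45 with Cck.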

How the data were processed

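The authors deposited log2 intensities per probe set, made with RMA and Partek per the submitters' processing notes. The versions, the genome build and any batch correction are not given in the sources used here. The file held 29214 probe sets on 119 arrays, with values from 2.293 to 14.18 and array medians from 7.355 to 7.566. Precision was limited by the number of arrays. In the main lead fits, which left out the label-number set, differences between the sets also added to the spread. Exactly 1 gene symbol was listed for 15310 probe sets, several for 323 and none for 13581, and 15279 were matched by gene identifier to the GRCr8 annotation.

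Group means were fitted with limma 3.58.1 (R 4.3.3; tables were read with data.table, version 1.17.8), 1 fit per strain for lead, dose, period, sex and label-number contrasts and 1 fit over all 119 arrays for strain contrasts. No filter on low values was used. Tests were two-sided, p-values were Benjamini-Hochberg adjusted over all probe sets of a contrast, and calls were made below an adjusted p of 0.05. Intervals are 95% confidence intervals from limma. The fits were tested on simulated data. Correlations used 100000 permutations (R) and figures matplotlib 3.10.9.

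The 10 genes, the lists and the label-number sets were chosen with earlier results of these data known. The rule for named genes took all 10 genes; for dose, period, sex and differences of lead effects those with the lowest p-values are printed. It also took up to 4 called members of each list and contrast (smallest p first), marker lists by their mean, and the 3 genes most correlated with each of the 10. The lists were the 4 interneuron lists and lists for principal neurons, astrocytes, oligodendrocytes, microglia, endothelium, choroid plexus, meninges, thalamus, striatum and neocortex. No gene list was tested as a set.

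The alternatives were 1 fit over all arrays, a further quantile normalization, probe sets above the 40th percentile only, array weights, the choroid plexus mean as a covariate, and leaving out each animal in turn. Others, chosen after seeing the data, were the label-number set as a block, each set alone, the means of label-number positions removed before correlation, and no array that went against its sex label. In the fits within each set a group had 2 animals (1 Sprague Dawley male control in the lower numbers), so its spread was taken from the other groups. Protein sequences were not used here.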

Additional observations from a re-analysis of the deposited data

Results flagged for a closer look

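In 290 combinations of gene and group with 4 animals, 16 animals stood far from the 3 others of their group, by a gap that chance exceeds in about 1 of 20 groups. That rate over 290 combinations gives about as many, so the count is near that of chance. None of the 16 was on an array that went against its sex label. The most were in Reln (5) and Npy (4).

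Among the genes of GABA synthesis and packaging, Gad1 was at 10.74 in Fischer male perinatal 250 ppm replicate 4, against 10.60 to 10.61 in the others of the group. Slc32a1 was at 8.95 in Sprague Dawley female postnatal 250 ppm replicate 4, against 8.75 to 8.78. Of the calcium-binding proteins, Calb2 was at 8.13 in Fischer male control 2, against 8.36 to 8.40.

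Among the peptides, Sst was at 12.43 in Long Evans female perinatal 750 ppm replicate 4, against 12.30 to 12.32. Vip was at 7.13 in Fischer male control 1, against 6.75 to 6.79, and at 6.51 in Sprague Dawley female perinatal 750 ppm replicate 4, against 7.16 to 7.21. Npy was at 10.04 in Fischer male perinatal 250 ppm replicate 1 (others 10.34 to 10.39), at 10.21 in Fischer female postnatal 250 ppm replicate 1 (10.42 to 10.44), at 10.33 in Fischer female postnatal 750 ppm replicate 4 (10.14 to 10.16) and at 10.20 in Sprague Dawley female postnatal 250 ppm replicate 4 (10.57 to 10.64). Cck was at 11.75 in Sprague Dawley female control 3, against 11.45 to 11.46.

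Reln was at 10.35 in Fischer male postnatal 750 ppm replicate 3 (others 10.04 to 10.08) and at 9.90 in Sprague Dawley female perinatal 250 ppm replicate 2 (10.30 to 10.35). In Long Evans it was at 10.21 in male control 1 (10.00 to 10.03), at 10.10 in female control 2 (all others 10.05) and at 10.23 in male postnatal 750 ppm replicate 4 (10.01 to 10.03).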

How the results depend on the processing

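The counts of 0 for lead, dose, period, sex and the differences of lead effects stayed 0 under every alternative and without each animal in turn. With the label-number set as a block (the labels share no replicate numbers between groups), those counts stayed 0. The lowest adjusted p (limma) of the lead, dose, period and sex contrasts in Fischer was then 0.24 in place of 0.81. With the same block 3 genes were called between Long Evans and Sprague Dawley controls in place of 1. That count was 2 with array weights, 5 in the lower label numbers and 1 to 3 without each control in turn. Between Long Evans and Fischer controls it was 0 in the lower numbers, 4 in the upper and 1 without the arrays that went against their sex label, in place of 2. Between Sprague Dawley and Fischer controls it was 1 after quantile normalization, 1 without those arrays and 0 to 2 without each control in turn, in place of 2. For the Sprague Dawley label-number sets it was 1 with 1 fit over all arrays, 1 without those arrays and 1 to 3 without each animal in turn, in place of 2. Signs turned for Sst in Sprague Dawley minus Fischer in the upper numbers (0.21 over all groups and in controls), for Slc32a1 (0.13) and Cck (0.037) in the same comparison and set, and for Gad2 in Long Evans minus Fischer in the lower numbers (0.0202). The cause was not tested. The probes' sequences, and sequence differences between the strains under them, were not analysed here. Groups of 4 animals, with the label-number set left out of the main fits, limit a single lead contrast to the intervals given above.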
